A study of Mus musculus with 18 samples.

Results

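The mRNA and chromatin of 10 regulators of lipogenic transcription were followed in mouse liver. They were taken by gene symbol from the count table, by no rule on their measured values. Earlier results of these data were known when they were chosen. In all they make up 10 of its 15572 genes and 18 of its 24994 RefSeq transcripts. They are Usf1 and Usf2, Srebf1 and Srebf2, Mlxipl and Mlx, Nr1h3, Smarcd3, and the kinase genes Prkdc and Mtor. The liver came from C57BL/6J mice kept on chow for 6 to 8 weeks. JMJD1C-LKO mice carry floxed alleles of Jmjd1c, which encodes a demethylase of lysine 9 of histone H3, and Cre recombinase driven by the albumin promoter. Deletion is thus aimed at hepatocytes, and its extent in the other cells of the liver was not measured here. WT mice were littermates, and the labels give no age. RNA-seq compared WT refed with JMJD1C-LKO refed mice, all fasted overnight and then refed a high-carbohydrate diet, by the labels for 6 h (the study's methods give a longer range for its feeding experiments), with 2 libraries of pooled RNA in each group. ATAC-seq, which marks accessible DNA, covered JMJD1C-LKO refed mice and WT mice in both states, and ChIP-seq for H3K9me2, a methylation mark linked to repression, covered WT fasted and WT refed livers, with 2 livers in each group. No RNA-seq of fasted liver and no H3K9me2 data of JMJD1C-LKO liver were analysed here.

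The fed liver turns carbohydrate into fatty acids, and the genes of that route are switched on together after a meal. USF-1 and USF-2 bind E-boxes in the promoters of lipogenic genes as homodimers or heterodimers. SREBP-1c, a product of Srebf1, is raised and processed under insulin and acts on fatty acid synthesis, whereas SREBP-2 acts mainly on cholesterol synthesis. ChREBP, encoded by Mlxipl, responds to glucose metabolites and binds DNA with its partner MLX, and LXRα, encoded by Nr1h3, is an oxysterol receptor that raises Srebf1 transcription. BAF60c, encoded by Smarcd3, is a subunit of the BAF chromatin remodeler. DNA-PK, encoded by Prkdc, is a kinase that phosphorylates USF-1 under insulin, and mTOR is a kinase of insulin and nutrient signaling.

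Total counts lay between 51265128 and 54400509 per RNA-seq library. Levels are given as CPM, which is the count of a gene over the TMM-scaled library size, and a gene was called changed when its adjusted p in edgeR's quasi-likelihood test was below 0.05. Of 14151 genes tested, 3958 were called (28.0%), 2066 higher (14.6%) and 1892 lower (13.4%) in the libraries labelled JMJD1C-LKO, and the median log2 fold change was 0.01. Jmjd1c itself had 1140 and 1188 counts in WT and 990 and 1129 counts in JMJD1C-LKO libraries, or means of 22.4 and 20.3 CPM, a log2 fold change of -0.14 ± 0.08 (SE, adjusted p = 0.233). The study itself reports a larger fall of Jmjd1c mRNA by RT-qPCR, and no detectable protein, in JMJD1C-LKO liver. The whole-gene RNA-seq counts do not show the deletion, and since the deleted exons are not given in the sources used here they do not test it. The directions below therefore refer to the libraries as labelled. Markers of other liver cells also differed between the groups. All 5 Kupffer cell markers were called higher (summed level 187 and 193 CPM in WT, 367 and 528 CPM in JMJD1C-LKO), as were 4 of 5 endothelial markers (82.8 and 84.9 against 113 and 148 CPM), 2 of 4 lymphocyte markers tested (10.2 and 8.53 against 16.4 and 22.3 CPM) and 1 of 5 stellate cell markers. Of 6 hepatocyte markers 3 were called higher and none lower, while Alb stood at 86053 and 84238 CPM in WT and at 81455 and 71445 CPM in JMJD1C-LKO libraries. Of 4 cholangiocyte markers 0 passed the test in edgeR and 0 in DESeq2, with 1 at an unadjusted p below 0.05 in edgeR (Krt19), and 1 of 2 pancreatic and 1 of 5 blood markers were called higher. The Kupffer cell calls held in all 9 alternative analyses. Of the endothelial calls only that of Stab2 held in all 9, and those of 2 endothelial markers were lost without either WT library. Of the lymphocyte calls only that of Ptprc held in all 9, and no stellate cell, pancreatic or blood call did. The part of these cells in the changes below was not tested, and in bulk liver fewer cells of a type cannot be told apart from less RNA per cell.

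Mlxipl was the single regulator of the 10 that passed the test, against 28.0% of all genes tested. Its mRNA stood at 446 and 428 CPM in the WT and at 307 and 314 CPM in the JMJD1C-LKO libraries. Both JMJD1C-LKO libraries lay below both WT libraries, and the log2 fold change was -0.49 ± 0.08 (SE, adjusted p = 0.0021), a level 0.711 times that of WT. A change at least as large in either direction was seen for 25.5% of the genes tested. The call held in all 9 alternative analyses, with adjusted p between 7.35e-07 and 0.0393. At an unadjusted p below 0.05 there were 2 regulators, the other being Usf2. The libraries are pools of RNA, so that these p-values measure the spread between pools and not between mice.

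**Figure D1:**
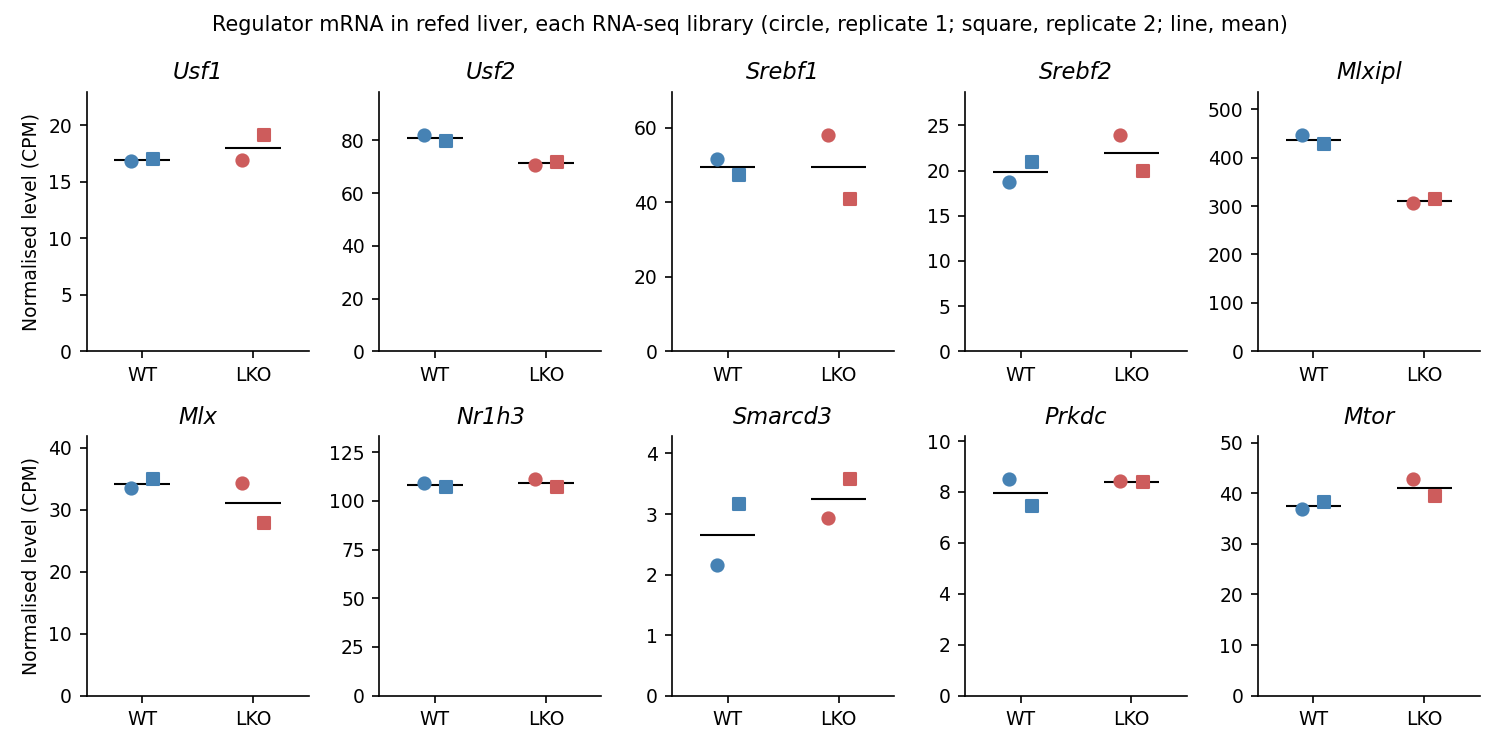
Normalised level (CPM, linear axis from 0) of each of the 10 regulators in the 2 WT refed and 2 JMJD1C-LKO refed RNA-seq libraries, with the line at the group mean. The groups are apart for Mlxipl, at 446 and 428 against 307 and 314 CPM, and by less for Usf2 and Mtor, while the JMJD1C-LKO points of Srebf1, at 58.0 and 40.8 CPM, lie on either side of the WT points.

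The count table holds Mlxipl as 1 transcript, variant 1 of the locus chr5:135089890-135139768 (mm10, plus strand), with its start at chr5:135106891. RefSeq gives a second start at chr5:135089890 for variant 2, upstream of the first, and this variant has no row in the table, so the use of the 2 starts could not be compared. Taken as a transcript, variant 1 had a log2 fold change of -0.49 ± 0.07 (SE, adjusted p = 0.037), with 3.5% of all transcripts called. This call was lost when any one of the 4 libraries was left out. Both variants end at chr5:135138201, so the row of variant 1 may also hold reads of variant 2 from shared exons. The lower level could therefore not be assigned to either start. For this reason the promoter windows of both are shown, from 250 bases upstream to 50 bases downstream (RefSeq, GRCm38.p6). Capitals mark every match, on either strand, to the E-box CACGTG, the sterol regulatory element TCACNCCAC, the CCAAT box CCAAT and the GC box GGGCGG, and no matches overlapped in the windows printed.
Mlxipl variant 1, chr5:135106641-135106940, plus strand: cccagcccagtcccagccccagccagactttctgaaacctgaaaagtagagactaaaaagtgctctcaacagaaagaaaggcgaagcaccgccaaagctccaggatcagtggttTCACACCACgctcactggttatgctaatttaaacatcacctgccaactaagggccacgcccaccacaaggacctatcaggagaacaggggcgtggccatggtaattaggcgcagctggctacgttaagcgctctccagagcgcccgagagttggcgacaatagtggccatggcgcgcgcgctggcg
Mlxipl variant 2, chr5:135089640-135089939, plus strand: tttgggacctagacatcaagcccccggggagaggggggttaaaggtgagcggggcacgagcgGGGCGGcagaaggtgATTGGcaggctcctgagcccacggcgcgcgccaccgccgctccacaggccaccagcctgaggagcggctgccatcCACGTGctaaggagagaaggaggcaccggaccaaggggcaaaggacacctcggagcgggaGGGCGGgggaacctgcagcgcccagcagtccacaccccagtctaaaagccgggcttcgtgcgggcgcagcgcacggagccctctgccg
The window of variant 1 held the sterol element once, 136 bases upstream of the start, as did 1.24% of 32851 RefSeq promoters. The window of variant 2 held 1 E-box, 98 bases upstream, as did 7.15% of promoters. A match describes the letters in the window and not the binding of a factor.

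Mlx, which encodes the partner through which ChREBP binds DNA, stood at 33.6 and 34.9 CPM in WT and at 34.3 and 27.8 CPM in JMJD1C-LKO libraries. The first JMJD1C-LKO library lay among the WT libraries and the second below them, and the log2 fold change was -0.14 ± 0.11 (SE, adjusted p = 0.348). Without JMJD1C-LKO replicate 1 it was -0.30 and past the threshold (adjusted p = 0.0213). Its 3 variants share a single start at chr11:101087290 on the plus strand, and none was called, with log2 fold changes between -0.34 and -0.06. The locus overlaps Psmc3ip on the other strand, so that reads of the 2 genes may be mixed where strand was not used in counting.

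Neither gene of the E-box factors USF-1 and USF-2 passed the test. Usf2 stood at 81.9 and 79.9 CPM in WT and at 70.7 and 71.7 CPM in JMJD1C-LKO libraries. Both JMJD1C-LKO libraries were lower, by a log2 fold change of -0.18 ± 0.07 (SE, adjusted p = 0.0952), and the same fit gave an interval of -0.35 to -0.02. Usf1 stood at 16.8 and 17.0 CPM in WT and at 16.9 and 19.1 CPM in JMJD1C-LKO libraries. These groups overlapped, with a log2 fold change of 0.09 ± 0.10 (SE, adjusted p = 0.542). Groups did not overlap for 3 of the 10 regulators, Mlxipl, Usf2 and Mtor, and for 67.5% of all genes tested.

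**Figure D2:**
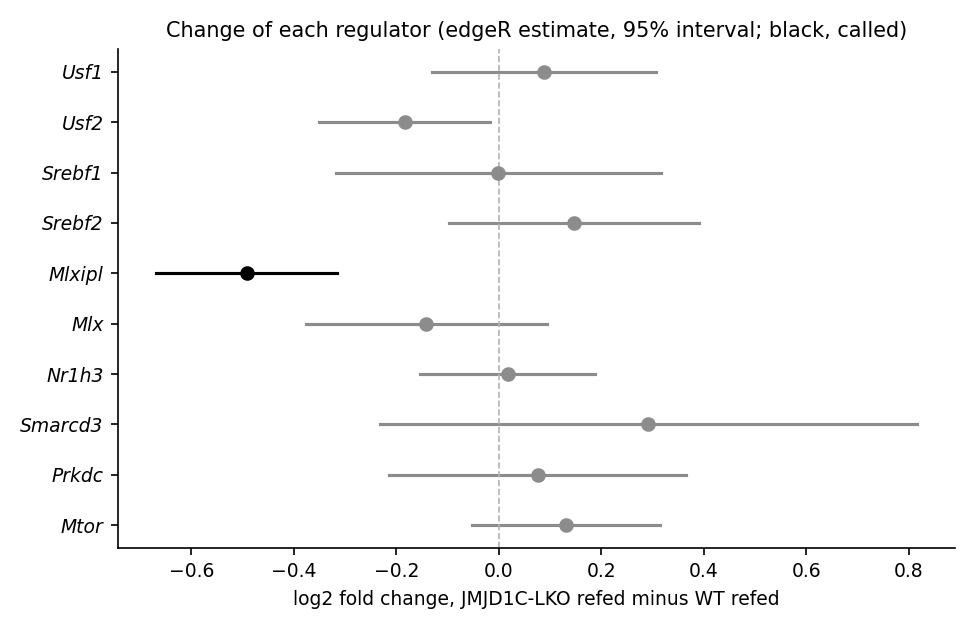
Log2 fold change of each regulator, JMJD1C-LKO refed minus WT refed, from the edgeR fit over all genes, with its 95% interval as a line. Mlxipl, in black, is the one called gene at -0.49, the interval of Usf2 ends at -0.02, and those of the other 8 regulators hold 0.

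None of the 4 Usf1 variants was called in edgeR, and a difference between variants was not tested. Variant 3 starts at chr1:171411681 on the plus strand, downstream of the start at chr1:171411313 that the other 3 variants share. It took 21.9% and 10.8% of the Usf1 count in the WT and 44.6% and 26.6% in the JMJD1C-LKO libraries. The level of variant 3 was 3.69 and 1.84 CPM in WT and 7.53 and 5.08 CPM in JMJD1C-LKO libraries. Its log2 fold change of 1.19 ± 0.40 (SE) missed the threshold in edgeR (adjusted p = 0.151) and passed it in DESeq2 (adjusted p = 0.0407). Variants 1, 2 and 4 had log2 fold changes of -0.36, -0.39 and -0.10, none called. The split of reads among variants that share most exons is an estimate made in the authors' counting, and its error is not part of the test. The window at the downstream start is shown because the H3K9me2 summits of Usf1 fell inside it.
Usf1 variant 3, chr1:171411431-171411730, plus strand: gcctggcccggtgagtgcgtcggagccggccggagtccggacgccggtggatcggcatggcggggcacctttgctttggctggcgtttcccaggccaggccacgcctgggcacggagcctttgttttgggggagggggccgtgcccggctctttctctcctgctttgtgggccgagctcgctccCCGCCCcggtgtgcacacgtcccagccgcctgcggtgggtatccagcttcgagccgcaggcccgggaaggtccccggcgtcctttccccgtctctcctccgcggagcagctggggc
It held 1 GC box and none of the other motifs, and its GC content was 72.0%.

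**Figure D3:**
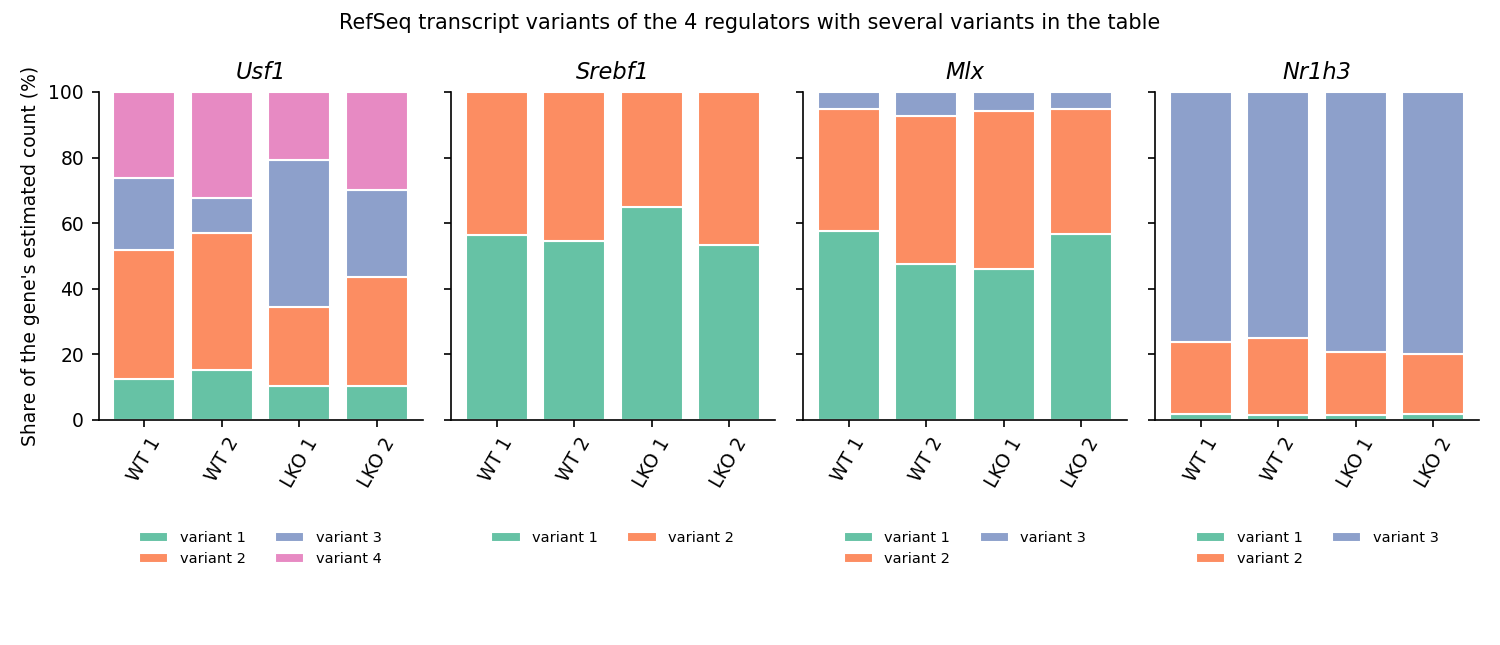
Share (%) of each gene's estimated count taken by each RefSeq transcript variant in the 4 RNA-seq libraries, for the regulators with more than 1 variant in the table. Variant 3 of Usf1 takes 44.6% and 26.6% in the JMJD1C-LKO libraries against 21.9% and 10.8% in WT, whereas Nr1h3 is led by variant 3 in every library, at 75.1% to 79.9%.

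The SREBP genes were not called. Srebf1 stood at 51.7 and 47.2 CPM in WT and at 58.0 and 40.8 CPM in JMJD1C-LKO libraries. The 2 JMJD1C-LKO libraries lay on either side of the WT libraries, so that the log2 fold change of -0.00 ± 0.14 (SE, adjusted p = 0.995) averages 2 unlike values. It was -0.28 and past the threshold without JMJD1C-LKO replicate 1 (adjusted p = 0.0288) and 0.23 without replicate 2 (adjusted p = 0.0762). The table holds variants 1 and 2, which both start at chr11:60220627 on the minus strand and had log2 fold changes of 0.12 ± 0.26 and -0.16 ± 0.09 (SE), neither called. RefSeq places variant 3 at chr11:60210471 and variant 4 at chr11:60222581, and neither has a row, so transcripts from the downstream start could not be told apart here. Since SREBP-1a and SREBP-1c are made from separate promoters of this gene, the values describe its summed rows and not SREBP-1c alone.

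Srebf2 had means of 19.8 CPM in WT and 21.9 CPM in JMJD1C-LKO libraries, and per kilobase of transcript stood at 4.09 and 4.58 against 5.23 and 4.37 CPM per kb. The groups overlapped and the log2 fold change was 0.15 ± 0.11 (SE, adjusted p = 0.35). Srebf2 was also the regulator whose ATAC-seq summits lay nearest its start in WT refed liver, and its window is shown for that reason.
Srebf2, chr15:82147019-82147318, plus strand: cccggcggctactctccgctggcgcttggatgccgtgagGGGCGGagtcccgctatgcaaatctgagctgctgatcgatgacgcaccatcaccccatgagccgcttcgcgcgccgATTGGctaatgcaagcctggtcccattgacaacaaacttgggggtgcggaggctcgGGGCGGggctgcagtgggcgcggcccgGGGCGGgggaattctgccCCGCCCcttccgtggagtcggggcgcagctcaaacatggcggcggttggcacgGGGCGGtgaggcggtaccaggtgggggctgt
The window held 5 GC boxes and 1 CCAAT box and neither an E-box nor the sterol element in the letters searched. GC boxes were found in 35.7% and CCAAT boxes in 37.4% of promoters. Windows were held for 8 of the 10 regulators, 13 in all, and Usf2 and Prkdc were not searched here. An E-box was present in 2 of the 13 windows (Mlxipl variant 2 and Mlx), the sterol element in 1, a CCAAT box in 6 and a GC box in 8.

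Nr1h3 had nearly equal levels, 109 and 107 CPM in WT and 111 and 107 CPM in JMJD1C-LKO libraries. Its log2 fold change was 0.02 ± 0.08 (SE, adjusted p = 0.891), with an interval of -0.15 to 0.19. Variant 2 of Nr1h3 stood at 23.7 and 25.1 CPM in WT and 21.4 and 19.9 CPM in JMJD1C-LKO libraries. It was not called (log2 fold change -0.24 ± 0.10, SE, adjusted p = 0.2). Variants 1 and 3, at log2 fold changes of -0.12 and 0.09, were not called either. The locus overlaps Acp2 on the other strand.

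The remodeler subunit and the kinases did not pass the test either. Smarcd3 was the lowest in count, with 112 and 165 counts in WT and 145 and 197 in JMJD1C-LKO libraries, or 2.16 and 3.16 against 2.93 and 3.57 CPM. At this depth its interval ran from -0.23 to 0.82 around a log2 fold change of 0.29, so a rise of 1.5-fold could not be detected or set aside. Prkdc stood at 8.49 and 7.46 CPM in WT and at 8.42 and 8.38 CPM in JMJD1C-LKO libraries, a log2 fold change of 0.08 ± 0.13 (SE, adjusted p = 0.698). Mtor stood at 36.8 and 38.2 CPM in WT and at 42.7 and 39.5 CPM in JMJD1C-LKO libraries. Both JMJD1C-LKO libraries were higher for Mtor, but the log2 fold change of 0.13 ± 0.08 (SE) missed the threshold (adjusted p = 0.262).

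Per kilobase of transcript, Mlxipl was the most abundant of the 10 in WT refed liver, at a mean of 126 CPM per kb. Nr1h3 followed at 62.1 and 61.2, Usf2 at 33.9 and 33.0, Mlx at 19.0 and 19.6, Srebf1 at 12.0 and 10.9 and Usf1 at 9.37 and 9.53 CPM per kb. Mtor (4.28 and 4.44) and Srebf2 (4.09 and 4.58) overlapped and could not be ordered, and Smarcd3 (1.25 and 1.83) and Prkdc (0.67 and 0.588) were lowest. The level of ChREBP mRNA was above that of the SREBP and USF genes in both groups. In the JMJD1C-LKO libraries 8 of the 10 kept their place, Srebf2 and Mtor changed places and overlapped again, and the ranges of Srebf1 (13.4 and 9.43) and Usf1 (9.34 and 10.6 CPM per kb) overlapped as well.

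Genes that work with these regulators were counted from lists made for each pathway, also with earlier results of these data known. Over all genes tested, 14.6% were called higher and 13.4% lower. In the list of SREBP processing and turnover, 4 of 7 were called higher and the other 3 were not called, with a list median log2 fold change of 0.27. Insig2, which encodes an endoplasmic reticulum anchor of the SREBPs, rose from 71.7 and 69.7 to 175 and 236 CPM (log2 fold change 1.54), and Scap, the SREBP escort, from 81.1 and 85.7 to 114 and 119 CPM (0.48). Lpin1, a phosphatidate phosphatase that also restrains nuclear SREBP, rose from 130 and 147 to 341 and 489 CPM (1.58). These 3 were called in all 9 alternatives, whereas the call of Insig1 (0.27) was lost in several. Of 11 BAF subunits, 3 were lower (Smarcd1, Smarcb1 and Actl6a, log2 fold changes -0.55, -0.33 and -0.32) and 8 were not called, and without WT replicate 1 or without WT replicate 2 none of these calls was left. Smarcd1, a paralog of Smarcd3, fell from 10.3 and 10.8 to 8.03 and 6.39 CPM.

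Of 12 genes of the mTOR complexes and their inputs, 3 were lower and 9 not called. This list and the 3 that follow stand beside 28.0% of all genes tested that were called, 14.6% higher and 13.4% lower. Rps6kb1, which encodes the S6 kinase downstream of mTOR complex 1, fell from 65.1 and 62.2 to 45.1 and 44.6 CPM (log2 fold change -0.51, adjusted p = 0.00168), and it alone of the 3 was called in every alternative, the others being Rheb (-0.37), the GTPase that activates the complex, and Deptor (-0.26), an inhibitor. The calls of Rheb and Deptor were lost without either WT library. Among 12 genes of USF-1 cofactors and of the kinases and phosphatase linked to them, Prkcz (0.55) and Ppp1ca (0.28) were higher and Top2b, a topoisomerase, lower at 45.4 and 45.5 against 32.3 and 27.3 CPM (-0.61). Without WT replicate 1 both higher calls were lost, and without WT replicate 2 that of Ppp1ca. The 8 other factors of the E-box and MLX network held 2 higher calls (Mlxip, 0.62, and Mxd4, 0.40) and 1 lower (Tfe3, -0.25), all lost without either WT library. Of 4 LXR and RXR receptor genes, Rxrb was higher (0.28) and Rxrg lower (-0.71), also lost without either WT library.

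The target genes of each factor were counted in the same way, beside 14.6% higher and 13.4% lower over all genes tested. Of 8 ChREBP targets 3 were lower and 1 higher, with a list median of -0.12. Pklr, which encodes liver pyruvate kinase, stood at 308 and 371 CPM in WT and at no more than 192 CPM in the JMJD1C-LKO libraries (log2 fold change -1.11, adjusted p = 0.00201), Tkfc, an enzyme of fructose breakdown, at 907 and 974 against 449 and 334 CPM (-1.26), and Fgf21, a hepatokine, at 30.3 and 27.2 against 5.04 and 5.5 CPM (-2.45). These 3 were called in all 9 alternatives. The higher gene was G6pc, the glucose-6-phosphatase of gluconeogenesis (0.71), and its call was lost without WT replicate 1 (adjusted p = 0.0951) and in DESeq2 (adjusted p = 0.0742). Khk, Txnip, Arrdc4 and Thrsp were not called.

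Of 11 enzymes under SREBP-1c and USF, 4 were lower and 2 higher, with a median of -0.02. Me1 (-0.88), Acaca (-0.57) and Elovl6 (-0.59), which supply NADPH, make malonyl-CoA and elongate fatty acids, were lower in all 9 alternatives, and Pnpla3 (-1.94), at most 2.78 CPM, in all but the analysis without WT replicate 2. Scd1, the stearoyl-CoA desaturase, was higher at 1315 and 1571 against 369 and 354 CPM (adjusted p = 1.01e-05). Fasn stood at 158 and 198 CPM in WT and at 169 and 121 CPM in JMJD1C-LKO libraries and was not called (adjusted p = 0.181), nor were Acly, Acacb, Gpam and Dgat2. Acss2, which makes acetyl-CoA from acetate, was higher (0.32), a call lost without either WT library.

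Of 8 SREBP-2 targets 5 were lower and 1 higher, with a median of -0.48. Among the lower genes were Stard4 (-0.61), a sterol carrier, and Sqle (-0.53), Idi1 (-0.53) and Fdft1 (-0.43), enzymes of sterol synthesis. Without WT replicate 1 or without WT replicate 2 a single call of this list, that of Stard4, was left. Of 8 LXR targets 6 were higher and 2 not called, with a median of 0.65. The sterol transporter genes Abcg5 (0.64), Abcg8 (0.96) and Abcg1 (1.35) were called in all 9 alternatives, and Mylip (0.79), Pltp (0.65) and Lpcat3 (0.25) were not. Without either WT library 3 of the 6 calls were left. Nr1h3 itself, at 108 CPM on average in WT and 109 in JMJD1C-LKO libraries, and Abca1 (0.04) were not called.

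**Figure D4:**
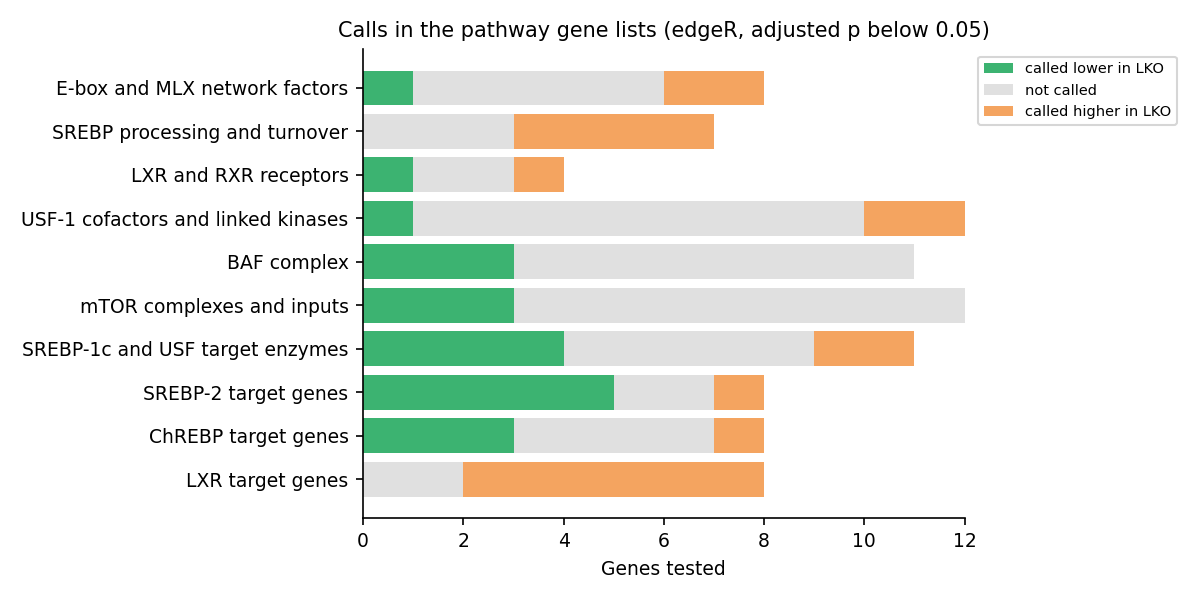
Number of genes tested in each list of pathway partners and targets that were called lower (green), not called (grey) or called higher (orange) in JMJD1C-LKO refed liver. LXR targets show 6 of 8 genes higher and SREBP-2 targets 5 of 8 lower, beside 14.6% higher and 13.4% lower over all genes tested.

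Summits are single positions of strongest signal within a peak, deposited for each liver with no read counts, so the depth behind each liver's summits is unknown. The study states only an approximate depth for its ChIP-seq, not one per library. A gene was counted when a summit lay within 1000 bp of a RefSeq transcript start, over 26180 annotated genes. In ATAC-seq the JMJD1C-LKO refed livers held 1450 and 825 summits, fewer than the WT livers, with 5220 and 7632 when fasted and 5027 and 3119 when refed. These totals move with each comparison below, and their part in it was not tested.

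Accessible summits were found at the starts of 3 of the 10 regulators. In WT mice at least 1 liver held one at 1 regulator when fasted and at 3 when refed, against 13.1% and 11.4% of all annotated genes, and in JMJD1C-LKO refed mice at 1 regulator, against 4.55%. Both livers held one at 1, 2 and 0 regulators, against 4.36%, 4.78% and 0.397% of genes. Among the 13825 genes also tested in RNA-seq, the shares for at least 1 liver were 22.2%, 19.2% and 7.41%. No difference between states was tested.

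Srebf2 held an ATAC-seq summit in both WT refed livers and in no other liver. The summits lay 293 and 174 bp upstream of its start, with −log10 q scores of 3.39 and 9.91, and ranked 3750 of 5027 and 679 of 3119 in their livers. The nearest summits of the WT fasted livers were 275220 and 198970 bp away. The summit of WT refed replicate 2, at chr15:82147095, fell inside the window printed above, and that of replicate 1 just upstream of it. When each liver was reduced to its 825 strongest summits, the Srebf2 summit of WT refed replicate 2 was still counted and that of replicate 1 was not.

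Prkdc held a summit in both WT fasted and both WT refed livers and in JMJD1C-LKO replicate 1, from 205 to 441 bp upstream of its start at chr16:15637866. Mcm4, which encodes a replication helicase subunit, starts 466 bp away in the other direction, so these summits belong to a shared region. Usf2 held 1 weak summit, 659 bp upstream, in WT refed replicate 1. Usf1, Srebf1, Mlxipl, Mlx, Nr1h3, Smarcd3 and Mtor held none within 1000 bp in any of the 6 livers, although 9 of the 10 regulators, all but Smarcd3, stood at 7.46 CPM or more in every RNA-seq library. For Mlxipl the nearest ATAC-seq summit was 42343 to 42623 bp downstream of the start in 5 of the 6 livers, beyond the end of the gene, and 250885 bp downstream in JMJD1C-LKO replicate 2.

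**Figure D5:**
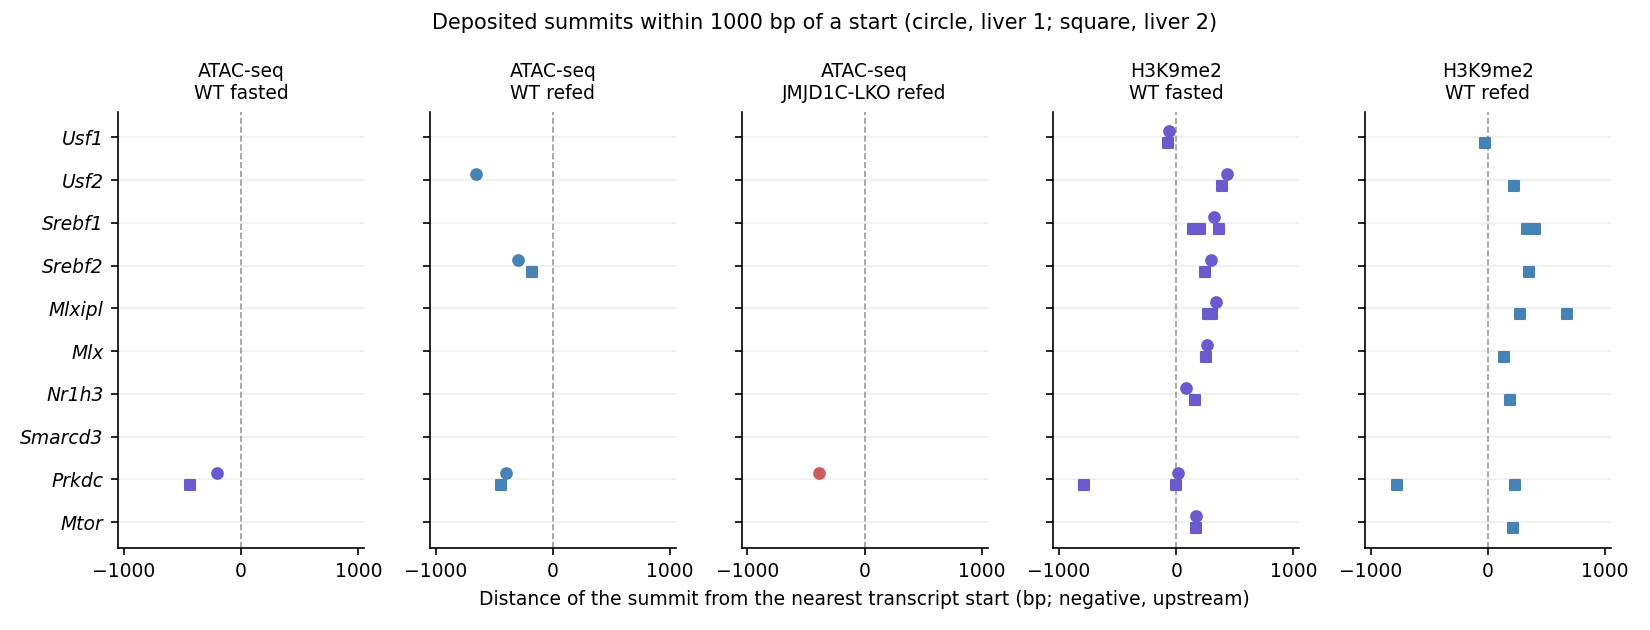
Distance (bp) of each deposited summit within 1000 bp from the nearest transcript start of each regulator, for liver 1 (circles) and liver 2 (squares) of each ATAC-seq and H3K9me2 group. ATAC-seq summits lie upstream of the starts of Prkdc, Srebf2 and Usf2, whereas H3K9me2 summits lie at or mostly downstream of the starts of 9 regulators in 3 livers, with those of Usf1 and a second one of Prkdc upstream, and H3K9me2 WT refed shows no circle.

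H3K9me2 summits were found at the starts of 9 of the 10 regulators, all but Smarcd3. One library stood apart. WT refed replicate 1 held 1297 summits, far below the 9929 of WT refed replicate 2 and the 7690 and 13456 of the fasted livers, and had a summit at the start of 0.233% of genes against 29.3%, 42.7% and 35.1%. None of the 10 regulators had a summit in it. Each of the other 3 livers had summits at the same 9. At least 1 liver thus held a summit at 9 regulators in WT fasted and 9 in WT refed mice, against 42.9% and 35.3% of all genes, and both livers at 9 and 0, against 29.1% and 0.042%. Without WT refed replicate 1 the counts were 9 in both states. Among genes tested in RNA-seq, 74.3% had a summit in at least 1 WT fasted and 61.6% in at least 1 WT refed liver, so that a share of 9 in 10 stands nearer that of expressed genes than that of all genes. With 2 livers a state, one of them apart, a loss or gain on refeeding could not be tested.

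The H3K9me2 summits lay close to the starts. Those of Mlxipl lay 339 and 307 bp downstream of the start of variant 1 in the WT fasted livers, ranking 592 of 7690 and 1762 of 13456, and 677 bp downstream in WT refed replicate 2, ranking 724 of 9929. The upstream start of variant 2 had summits 268 and 274 bp downstream in WT fasted replicate 2 and WT refed replicate 2. Those of Usf1 lay 62, 73 and 23 bp upstream of its downstream start, inside the printed window and in an intron of the other 3 variants. These were among the stronger summits of their livers, ranking 1171 of 7690, 2606 of 13456 and 1585 of 9929.

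The other regulators had summits downstream of their starts in the same 3 livers. They lay 431, 393 and 224 bp downstream for Usf2, 294, 247 and 350 bp for Srebf2, 266, 257 and 139 bp for Mlx, 86, 158 and 190 bp for Nr1h3 and 166, 171 and 214 bp for Mtor. Srebf1 had one at the counted start in each of the 3 livers, 321, 147 and 337 bp downstream, and one at the start of variant 3 in WT fasted replicate 2 and WT refed replicate 2 alone, 366 and 400 bp downstream. WT fasted replicate 2 held a further weak summit 202 bp downstream of the start of variant 4. Prkdc had summits 16 and 0 bp from its start in the WT fasted livers and 228 bp downstream in WT refed replicate 2. A second, weaker summit lay 787 and 778 bp upstream of Prkdc in WT fasted replicate 2 and WT refed replicate 2, beyond the start of Mcm4. For Smarcd3 the nearest summits were 2794 and 2743 bp upstream in WT fasted replicate 2 and WT refed replicate 2. Smarcd3 was also among the regulators with the least mRNA, at 1.25 and 1.83 CPM per kb in WT. Prkdc, which had summits at its start, was lower still, at 0.67 and 0.588 CPM per kb. A link between level and summits was not tested.

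Taking the same number of strongest summits from each liver left fewer regulators. With 1297 summits in each, WT fasted replicate 1 held Usf1, Usf2 and Mlxipl, WT fasted replicate 2 held Mtor, WT refed replicate 2 held Mlxipl, and WT refed replicate 1 held none. In the same order of livers, 5.74%, 5.82%, 5.76% and 0.233% of all annotated genes had a summit at a start. Mlxipl was found in both states at this setting, in WT fasted replicate 1 and WT refed replicate 2. No regulator was found in both livers of a state. With all summits of WT fasted replicate 1 counted, one was found at 8 of 8 factors of the E-box and MLX network, 11 of 12 mTOR genes, 6 of 11 SREBP-1c and USF target enzymes and 4 of 8 ChREBP targets, beside 29.3% of all annotated genes and 51.6% of those tested in RNA-seq in this liver. None of the 5 Kupffer cell, 4 annotated lymphocyte, 5 pancreatic and 5 blood markers had an H3K9me2 summit at a start in any of the 4 livers. Of the endothelial and the stellate cell markers 1 each had one, in WT fasted replicate 2 alone. The cholangiocyte marker Sox9 had one in every liver but WT refed replicate 1.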

How the data were processed

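Of the 18 samples, 14 were used, and the 4 input libraries were not analysed here. The deposited RNA-seq table holds estimated counts per RefSeq transcript, not scaled, for 2 WT refed and 2 JMJD1C-LKO refed libraries made by the authors from pooled RNA. The submitters' processing notes list cutadapt 1.2.1, HISAT2, MACS2 2.1.1 and Partek and the build mm10. The counting method and its use of strand are not given in the sources used here. For ATAC-seq and ChIP-seq the authors ran MACS2 on every liver by itself, for ChIP-seq against its own input, and deposited summits with a −log10 q-value. A second deposited table holds the authors' own comparison and was not used. Fasted and refed samples were told apart by their titles, since the labels give every sample the same treatment text.

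Counts were summed per gene, rounded and tested with edgeR 4.0.16 (filterByExpr, TMM, quasi-likelihood F test, Benjamini-Hochberg over all genes or transcripts tested, no block), with DESeq2 1.42.0 as an alternative, and the fits were tested on simulated data. Intervals are 95% intervals of the fit. Levels per kb divide each transcript's CPM by its RefSeq length. Summits were placed on RefSeq GRCm38.p6 starts, which matched the positions in the count table. All 10 regulators are named, and from each list at most 5 genes past the threshold with the smallest p. Beyond these, Lpcat3 and Acss2 are named as further genes past the threshold, and other members because they did not pass. Single values of some list members are not reported here. The regulators and lists were chosen with earlier results of these data known. All 18 transcripts of the regulators passed the count filter. No per-sample column of the count table was left out, and replicates differed by more than counting noise.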

Additional observations from a re-analysis of the deposited data

How the results depend on the processing

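The lower level of Mlxipl kept its call in all 9 alternatives, with log2 fold changes of -0.52 to -0.46 when a library was left out. Genes called numbered 3958, and 3292 in DESeq2, 2326 with the most abundant transcript of each gene alone, and 1354 to 5171 when a library was left out (1358 without WT replicate 1, 1354 without WT replicate 2). Regulators called numbered 1 to 3 when a library was left out. The 3 came without JMJD1C-LKO replicate 1, where Mlx (-0.30) and Srebf1 (-0.28) passed. Transcripts of regulators called numbered 2 in DESeq2, 0 under the replicate block and 0 to 0 when a library was left out. Replicate numbers did not pair the libraries (correlation of same-numbered deviations across genes -0.0046), and the fit with the replicate block called 4207 genes and 1 regulator.

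Directions of uncalled values that changed sign were as follows. Srebf1 was at 0.0002 with DESeq2 size factors, 0.12 with its most abundant transcript and -0.28 to 0.23 when a library was left out, and Usf1 at -0.39 with its most abundant transcript and -0.0042 to 0.17 when a library was left out. Left-out ranges were -0.30 to 0.0036 for Mlx, -0.012 to 0.045 for Nr1h3 and -0.015 to 0.17 for Prkdc. For transcripts they were -0.48 to 0.20 for variant 4 of Usf1, -0.33 to 0.46 for variant 1 of Srebf1, -0.41 to 0.23 for variant 2 of Mlx, -0.26 to 0.031 for variant 1 of Nr1h3 and -0.013 to 0.17 for that of Prkdc. Jmjd1c was at 0.10 with its most abundant transcript.

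Regulators with an H3K9me2 summit at a start numbered 4 in WT fasted and 1 in WT refed with equal numbers of summits. This counts at least 1 liver, where 8.16% and 5.98% of all annotated genes had one. When both livers were required, with all summits kept, 0 regulators were left in WT refed, against 0.042% of genes. Leaving out a replicate of each group gave 9 in WT fasted and 0 to 9 in WT refed. For ATAC-seq, requiring both livers gave 0 in JMJD1C-LKO refed, and leaving out a replicate gave 1 in WT fasted, 2 to 3 in WT refed and 0 to 1 in JMJD1C-LKO refed. The cause of these changes was not tested. With 2 libraries or livers in a group and no read depth per library for summits, small changes and losses of a summit were not detectable.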

Other observations

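Of the 6 hepatocyte markers, Tat, which encodes a tyrosine-degrading enzyme, stood at 592 and 516 CPM in WT and at 1992 and 2908 CPM in JMJD1C-LKO libraries (log2 fold change 2.15, adjusted p = 5.67e-05 in edgeR). Cps1, the first enzyme of the urea cycle, was higher as well (0.64), and both calls held in all 9 alternatives. Apoc3 was higher by 0.40, a call lost without WT replicate 2 (adjusted p = 0.165). Apoa1 and Ttr were not called.

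H3K9me2 summits within 1000 bp of a start were also counted at the target lists. In WT fasted replicate 1 they were found at 5 of 8 SREBP-2 targets, 4 of 8 ChREBP targets, 6 of 11 SREBP-1c and USF target enzymes and 4 of 8 LXR targets, beside 51.6% of the genes tested in RNA-seq. In WT fasted replicate 2 the counts in the same order were 8, 7, 8 and 5, beside 74.1% of genes, and in WT refed replicate 2 they were 8, 6, 7 and 5, beside 61.6%. WT refed replicate 1 had none in any of the 4 lists. ATAC-seq summits were found at 2 of 8 SREBP-2 targets in each WT fasted liver, beside 20.2% and 9.28% of the genes tested in RNA-seq. They were found at 3 in each WT refed liver, beside 16.7% and 10.5%. In the JMJD1C-LKO refed livers they were at 1 and 0, beside 6.66% and 1.31%. In the same order of livers, 1, 0, 1, 1, 0 and 0 of 8 ChREBP targets had one. For the 11 SREBP-1c and USF target enzymes the counts were 2, 2, 2, 2, 1 and 0. For the 8 LXR targets they were 0, 0, 1, 1, 0 and 0. These lists are small and no difference between them was tested.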
